A study of Saccharomyces cerevisiae with 2 samples.

Results

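Ribosome biogenesis factors are the proteins that cut, modify, fold and package ribosomal RNA precursors before the ribosome is complete. The 60 genes described here were chosen by name, as members of the small-subunit, large-subunit or small nucleolar RNA particle (snoRNP) machinery of budding yeast (Saccharomyces cerevisiae), from 5656 genes named on the array. All 60 matched a gene symbol of the RefSeq R64 table, and all had at least 1 probe set that names a single gene. They fall into 25 small-subunit factors, 26 large-subunit factors, 6 core proteins of snoRNPs and 3 factors needed for both subunits, lie on 14 chromosomes and are read by 78 probe sets.

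The yeast carried a histone H3 with lysines 4, 36 and 79 replaced by arginine. Galactose medium kept a wild-type copy of H3 on, and a shift to glucose medium turned it off, which left the mutant as the remaining source of H3 protein. Total RNA came from 2 replicate cultures of this strain, grown in selective medium and collected 12 h after the shift at an optical density of 0.5 to 0.7, with an Affymetrix array for each culture. Both arrays belong to 1 group, and wild-type cells and other times were not analysed here, so what follows is the level of each gene in the mutant at 12 h and its spread between the cultures, with no p-value. The labels do not state the strain background or how the H3 genes are carried.

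In yeast, the ribosomal RNA precursor is transcribed in the nucleolus, where a large assembly called the small-subunit processome forms on its 5′ end while it is still being made. Cleavage between the sequences of the subunits then separates the small-subunit path from the large-subunit path, and each path has its own helicases, GTPases and scaffold proteins. SnoRNPs guide 2′-O-methylation (box C/D class) and pseudouridylation (box H/ACA class) of the RNA. The genes of these proteins are known to be expressed together and to follow growth rate, activated through the transcription factor Sfp1 and the kinase Sch9 and repressed through Tod6, Dot6 and Stb3.

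Signals are MAS5 intensity values in arbitrary units. The middle gene of the array had a signal of 42.0 on replicate 1 and 41.4 on replicate 2, and the 75th percentile of genes was 95.3 and 94.0. The highest of 9 control probe sets for the opposite strand of control genes read 3.39 and 4.07, which gives a level for signal without a matching yeast RNA. The actin gene ACT1 had a ratio of 3′ to 5′ signal of 1.29 and 1.43, SPT15 of 2.44 and 2.73 and SRB4 of 2.27 and 2.81, higher on replicate 2 for each. Cultures were compared by the ratio of replicate 2 to replicate 1. A signal filter removed the genes whose log2 signal, averaged over the arrays, fell under the 25th percentile (a signal of about 19.2), and kept 4242 genes (75%). Of these, 3.47% were higher and 6.91% lower on replicate 2 by over 1.2-fold, and their median log2 ratio, with 50% of genes below it, was -0.023. Of the galactose regulon, GAL1 read 8.37 and 8.02, GAL7 15.1 and 19.4 and GAL10 28.6 and 31.1, all below the all-gene median, and the glucose transporter gene HXT3 read 1072 and 990.3. Each H3 probe set matches both H3 gene copies, and the shut-off of wild-type H3 was not checked with them.

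Most ribosome biogenesis genes gave a signal above the middle of the array. They had medians of 75.5 and 74.9 on replicates 1 and 2, a mean of 75.2 ± 0.405 (SD, n = 2), against 41.7 ± 0.383 for all genes. Of the 60 genes, 49 (81.7%) lay above the all-gene median on both arrays, where 48.2% of all genes did. The 75th percentile was passed on both arrays by 20 of the 60, where 24% of all genes passed it. Probe sets differ in how strongly they bind their target, so each gene is described by its place on the whole array, and signals of different genes do not give their relative RNA amounts. In a culture, fewer cells with a transcript and less of it per cell cannot be told apart.

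The 3 main classes stood at different heights on the array. The snoRNP core proteins had a median signal of 335 on both arrays (335 ± 0.530, SD, n = 2), and 6 of 6 lay above the 75th percentile of all genes. Large-subunit factors had a median of 79.1 and 79.5 (79.3 ± 0.314), with 21 of 26 above the all-gene median and 9 of 26 above the 75th percentile on both arrays. Small-subunit factors had a median of 66.7 and 58.7 (62.7 ± 5.69), with 19 of 25 above the all-gene median and 3 of 25 above the 75th percentile. Of all genes, 48.2% lay above the all-gene median and 24% above the 75th percentile on both arrays. At the 75th percentile the small-subunit share was thus below that of all genes, and the large-subunit share above it. The small-subunit and large-subunit medians lay in the same order on both arrays. The 3 factors of both subunits had a median of 116 and 118. These are counts and medians, and no test of the difference between classes was made.

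**Figure D1:**
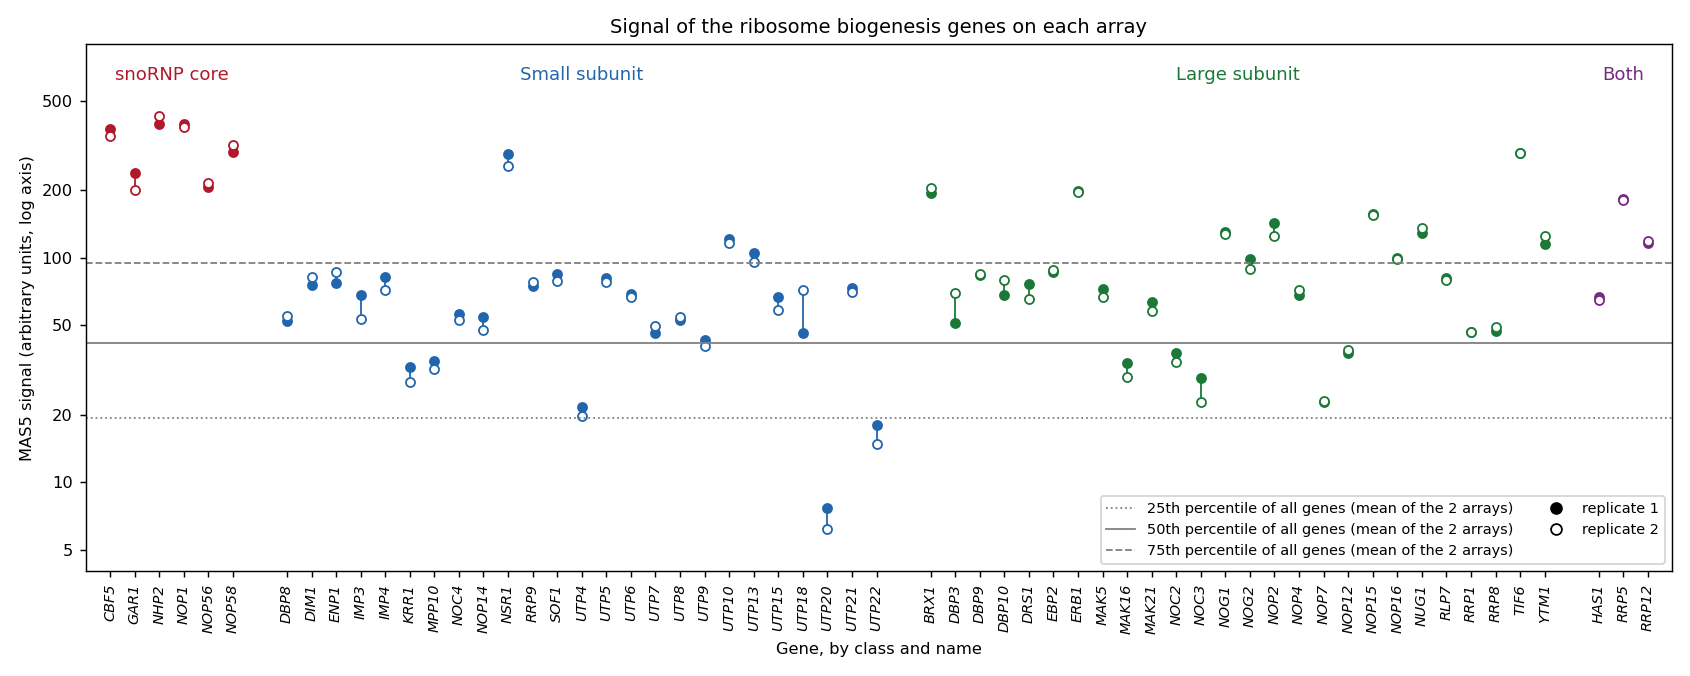
Signal (log axis, arbitrary units) of each of the 60 genes on replicate 1 (filled) and replicate 2 (open), grouped by class and ordered by name. Horizontal lines mark the 25th, 50th and 75th percentiles of all genes. All 6 snoRNP genes lie above the 75th percentile line, and UTP22 and UTP20 lie below the 25th.

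The 3 box C/D genes among the members all lay above the 75th percentile of genes on both arrays. NOP1, the fibrillarin methyltransferase of box C/D particles, read 395 and 383 on replicates 1 and 2 (389 ± 9.06, SD, n = 2). NOP56 and NOP58 encode the related scaffold proteins that bind the guide RNA with Nop1. NOP56 read 207 and 216, and NOP58 read 296 and 319 as the mean of 4 probe sets. NOP1 was lower, and NOP56 and NOP58 were higher, on replicate 2 than on replicate 1, with log2 ratios of -0.047, 0.065 and 0.11.

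The 3 box H/ACA genes among the members lay above that percentile as well. CBF5, which encodes the pseudouridine synthase known in humans as dyskerin, read 375 and 350.4. NHP2, an RNA-binding core protein of the same particle, read 394 and 429. GAR1, a glycine- and arginine-rich protein that binds Cbf5, read 239.9 and 199.9.

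GAR1 was higher on replicate 1 (log2 ratio -0.26) and lay just inside 1.2-fold, the widest gap of the 6 snoRNP genes. CBF5 was lower on replicate 2 as well (log2 ratio -0.098), while NHP2 was higher (0.12), so the 3 box H/ACA members did not shift together between the cultures. Over the 6 snoRNP genes, 3 had a ratio above and 3 below the median of all genes kept by the signal filter.

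Among the small-subunit factors, NSR1, UTP10 and UTP13 lay above the 75th percentile of genes on both arrays. NSR1 encodes a nucleolin-like protein needed for 18S rRNA production, and it read 289 and 257 (273 ± 22.7, SD, n = 2). UTP10 read 121 and 117, and UTP13 read 105 and 96.2. The other 22 did not pass that percentile on both arrays.

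UTP-A is the subcomplex that binds the start of the nascent precursor and is linked in yeast to transcription of the ribosomal DNA. The median of its 6 genes among the members was 59.7 and 56.6, from UTP4 at 21.7 and 19.7 to UTP10. UTP5 read 81.1 and 77.7, UTP8 52.7 and 54.4, and UTP15 66.7 and 58.7. UTP9 read 43.0 and 40.4, just above the all-gene median on replicate 1 and just below it on replicate 2. UTP4 lay close to the 25th percentile of the array on both. Of the 6 genes, 5 had a ratio of replicate 2 to replicate 1 below the median of all kept genes, with a range of log2 ratios from -0.19 (UTP15) to 0.046 (UTP8).

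UTP-B joins UTP-A on the same part of the precursor. Of its 4 genes among the members, UTP18 differed most between the cultures. UTP6 read 69.1 and 66.7, UTP13 105 and 96.2, and UTP21 73.1 and 70.4 on replicates 1 and 2. These 3 genes were slightly lower on replicate 2, with log2 ratios from -0.13 to -0.051. UTP18, whose protein recruits the RNA exosome to remove the cut leader, read 46.5 and 72.1. It was 1.55-fold higher on replicate 2, a log2 ratio of 0.63, and 7 of 4242 kept genes had a higher ratio. The 7 probe sets within 5 numbers of its probe set and with signal above the filter had log2 ratios from -0.031 to 0.18. UTP18 has a single probe set, so no further probe set repeats the value.

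The U3 snoRNA guides the early cleavages of the small-subunit path, and its partner proteins read above the array median except for 1 of them. RRP9, the U3-specific protein, read 74.9 and 78.4. IMP3 and IMP4, which help U3 pair with the precursor, read 68.3 and 53.6, and 82.5 and 71.6. MPP10, their partner in the Mpp10 complex, read 34.7 and 32.0 and lay below the all-gene median on both arrays. The 3 proteins of the Mpp10 complex were lower on replicate 2, with log2 ratios of -0.35 for IMP3, -0.20 for IMP4 and -0.12 for MPP10. Of these, IMP3 passed 1.2-fold (1.28-fold lower), and 152 of 4242 kept genes had a lower ratio than IMP3. The 7 neighbouring probe sets, chosen as for UTP18, had log2 ratios from -0.30 to 0.17.

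The remaining small-subunit genes were mostly above the array median. NOP14 and NOC4 encode partners in the processome, and they read 54.7 and 47.6, and 56.1 and 52.8. UTP7 and SOF1 encode WD-repeat proteins, and they read 46.1 and 49.8, and 84.4 and 79.1. KRR1, a KH-domain protein, read 32.7 and 27.9 and lay below the median on both arrays. The helicase gene DBP8 read 52.5 and 54.9. DIM1, the enzyme that dimethylates a pair of adenines near the end of 18S rRNA, read 76.1 and 81.8, and ENP1, a factor that stays with the pre-40S particle, read 77.4 and 87.0. None of these genes passed 1.2-fold between the arrays.

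UTP20 and UTP22 were the 2 members below the signal filter, and their low values rest on probe sets that disagree. UTP20, a very large helical-repeat protein of the processome, had a gene value of 7.66 and 6.15 from 10 probe sets, which spread from 0.256 to 40.3 on replicate 1 and from 0.247 to 38.6 on replicate 2. Of these probe sets, 4 did not lie above the opposite-strand controls on both arrays. UTP22, which forms the UTP-C complex with Rrp7, had a gene value of 18.0 and 14.9 from 6 probe sets, spread from 7.61 to 79.3 on replicate 1 and from 5.74 to 77.9 on replicate 2. By the brightest probe set alone, UTP22 lay above the median of all genes (44.3 and 43.3 by the same rule) and UTP20, at 40.3 and 38.6, just below it.

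For these genes the difference between arrays was smaller in the brightest probe set. The brightest UTP20 probe set had a log2 ratio of -0.062 against -0.32 for the mean of 10, and 9 of the 10 were lower on replicate 2. The brightest UTP22 probe set had -0.025 against -0.28 for the mean of 6, and all 6 were lower on replicate 2. NOP58 had 4 probe sets that differed widely in level, from 50.2 to 855 on replicate 1, but all 4 were higher on replicate 2, with log2 ratios from 0.055 to 0.20. NOG2 had 2 probe sets, at 135 and 134 and at 72.7 and 59.0, with log2 ratios of -0.0063 and -0.30. The other 56 members have 1 probe set each, so such disagreement cannot be seen for them.

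**Figure D2:**
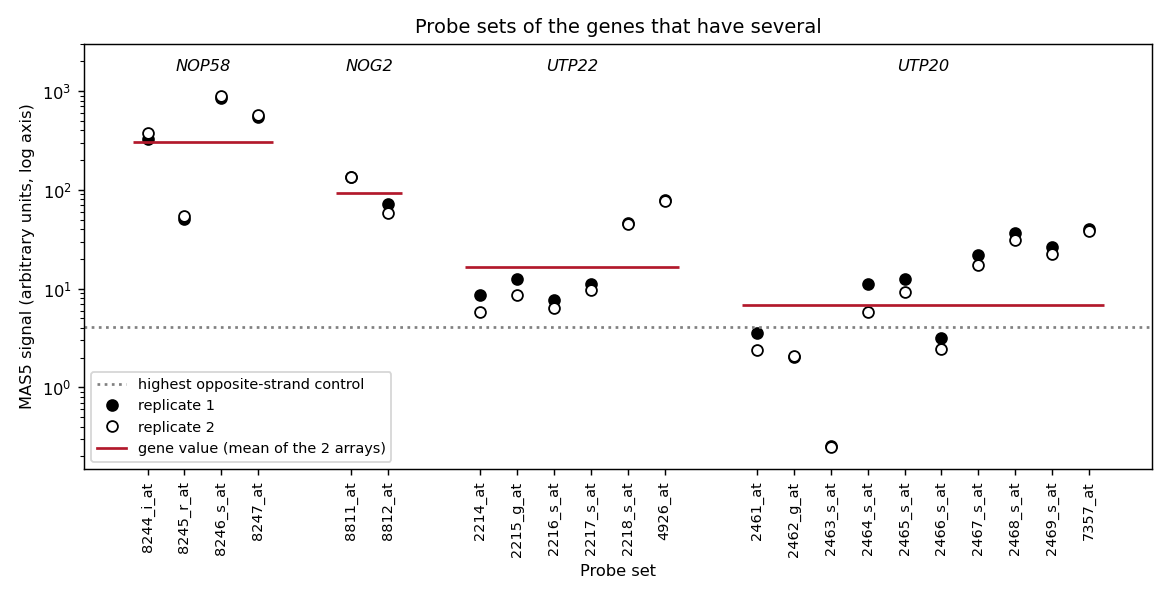
Signal (log axis, arbitrary units) of each probe set of the 4 genes with several, on replicate 1 (filled) and replicate 2 (open), with the gene value as a line. The UTP20 probe sets run from 0.256 to 40.3 on replicate 1, and 4 of them lie under the dotted line on both arrays, drawn at the higher of the 2 arrays' control levels (4.07), while the NOP58 probe sets run from 50.2 to 855.

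Large-subunit assembly factors spanned a wide range on the array. TIF6, which keeps the immature large subunit from joining the small one, read 294 and 292, above 91.6% and 91.7% of genes. BRX1, a factor of early pre-60S particles, read 194 and 206, and NOP15, an RNA-binding pre-60S factor, read 158 and 155. All 3 lay above the 75th percentile on both arrays. NOP16 read 100.4 and 98.9 and passed it as well. EBP2, RLP7 and NOP4, which encode further pre-60S proteins, read 86.6 and 88.4, 81.7 and 79.4, and 68.3 and 71.8. RRP1 read 46.9 on both arrays, just above the all-gene median. NOP12, at 37.6 and 38.7, and MAK16, at 34.1 and 29.4, lay below it.

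The Nop7, Erb1 and Ytm1 proteins form a complex that acts in maturation of large-subunit rRNA, and its genes read at very different places on the array. ERB1 read 198 on both arrays and YTM1 read 116 and 125. NOP7 read 22.9 and 23.1, close to the 25th percentile. Each of the 3 had a ratio above the median of all kept genes, with log2 ratios of -0.0022 for ERB1, 0.11 for YTM1 and 0.012 for NOP7.

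The Noc proteins bind each other in pairs that move pre-60S particles towards the nucleoplasm, and their genes were lower on replicate 2. MAK21, also called NOC1, read 63.9 and 57.7, NOC2 read 37.8 and 34.2, and NOC3 read 29.1 and 22.8. Their log2 ratios were -0.15, -0.15 and -0.36. NOC3 passed 1.2-fold (1.28-fold lower), and 149 of 4242 kept genes had a lower ratio. The 9 probe sets within 5 numbers of the NOC3 probe set and above the filter had log2 ratios from -0.42 to 0.30, a range that takes in its own. NOC2 and NOC3 lay below the all-gene median on both arrays, and MAK21 above it.

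The 3 members that encode GTPases of the large-subunit path all lay above the all-gene median on both arrays. NUG1 read 129 and 136, NOG1 read 131 and 128, and NOG2 read 99.0 and 89.0. The 25S rRNA methyltransferase genes NOP2 and RRP8 read 143 and 126, and 47.0 and 49.4. None of the 5 passed 1.2-fold between the arrays. The log2 ratio of NOP2 was -0.19, the widest of the 5.

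DEAD-box helicases remodel RNA at many steps of the large-subunit path. The 5 large-subunit members that encode them had a median signal of 72.8 and 70.04, and all lay above the all-gene median on both arrays. DBP9 read 83.6 and 84.8, MAK5 72.8 and 66.8, and DRS1 76.5 and 65.9 on replicates 1 and 2. DBP10 read 68.6 and 79.7, a log2 ratio of 0.22. DBP3 read 51.4 and 70.04, which was 1.36-fold higher on replicate 2 (log2 ratio 0.45), and 36 of 4242 kept genes had a higher ratio. The 7 probe sets within 5 numbers of the DBP3 probe set and with signal above the filter had a median log2 ratio of 0.18, from -0.21 to 0.35. Array coordinates were not read, and the part of probe set number in the DBP3 value was not tested.

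Factors that act in both paths gave nearly the same signal in both cultures. RRP5, an RNA-binding protein needed for cleavages on either side of the separating cut, read 183 and 181. RRP12, which takes part in export of both subunits, read 116 and 118, and the helicase gene HAS1 read 67.0 and 64.9. Their log2 ratios were -0.017, 0.026 and -0.045.

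Between the cultures, 54 of the 58 members kept by the signal filter lay within 1.2-fold. UTP18 and DBP3 were higher on replicate 2 by more (3.45% of members, against 3.47% of all kept genes). IMP3 and NOC3 were lower by more (3.45%, against 6.91% of all kept genes). The members' log2 ratios had an SD of 0.17, against 0.20 for all kept genes. Of the 4 genes past 1.2-fold, UTP18 and DBP3 lay outside the central 95% of all kept genes, which ran from -0.43 to 0.31. Each ratio sets a single array against another, so none of these differences has a replicate of its own.

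**Figure D3:**
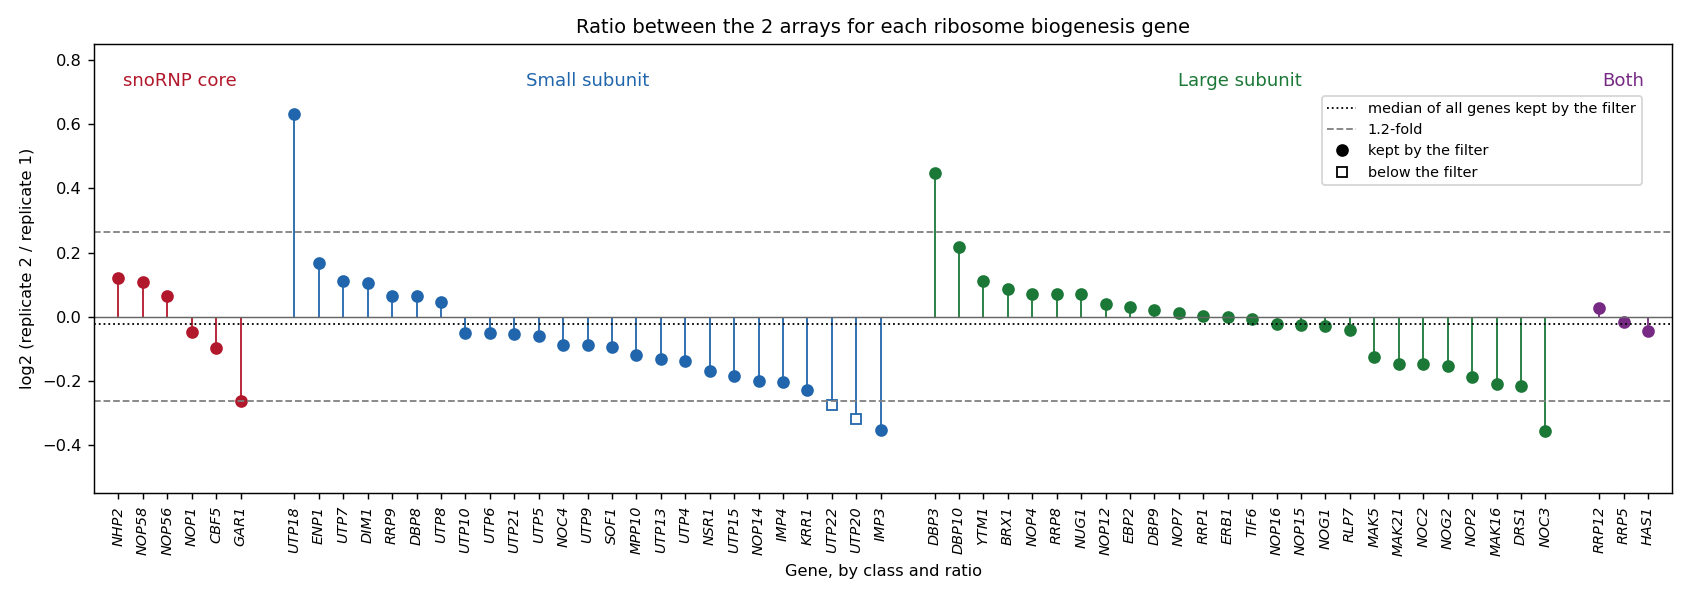
Log2 ratio of replicate 2 to replicate 1 for each of the 60 genes, grouped by class and ordered by ratio, with the median of all kept genes (dotted) and 1.2-fold (dashed). UTP18 and DBP3 lie above the upper dashed line and IMP3 and NOC3 below the lower one, as do UTP22 and UTP20 (open squares), which were below the filter.

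By class, the small-subunit genes leaned lower on replicate 2. Their median log2 ratio, relative to the median of all kept genes (-0.023), was -0.064 over 23 genes, and 16 of 23 (69.6%) lay below that median, where 50% of all kept genes do. The large-subunit median was 0.018 over 26 genes, with 11 of 26 (42.3%) below, and the snoRNP median was 0.032 over 6 genes, with 3 of 6 below. Over all 58 kept members it was -0.013, with 31 of 58 (53.4%) below. The small-subunit value was -0.034 with the filter at the 50th percentile and -0.042 with the brightest probe set of each gene. None of these shifts was tested. The 3′ to 5′ control ratios were also higher on replicate 2 (2.81 against 2.27 for SRB4), and their part in the small-subunit value was not tested.

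**Figure D4:**
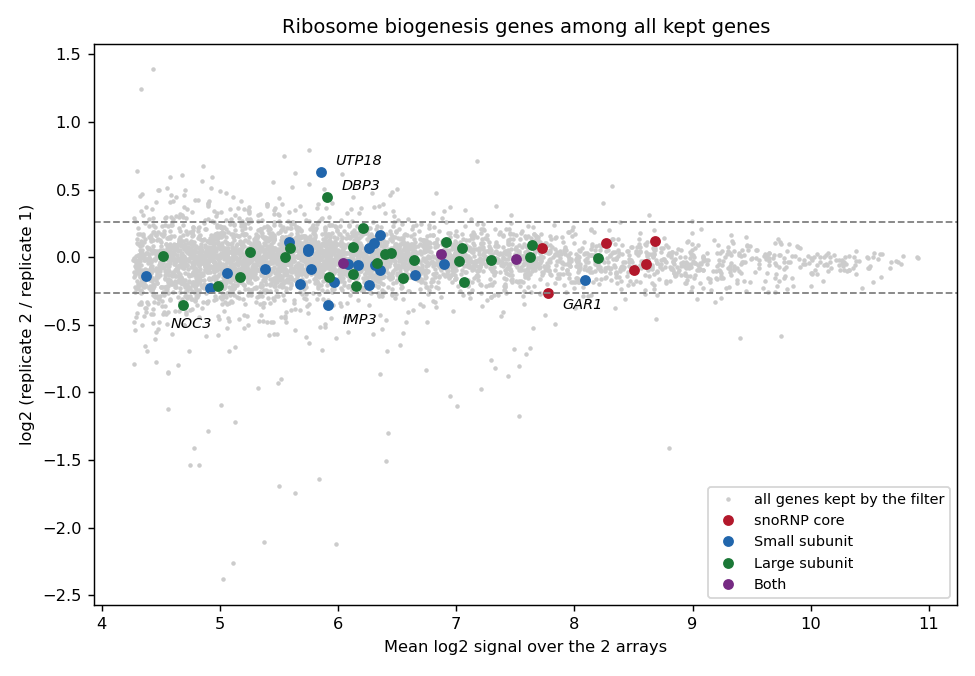
Log2 ratio of replicate 2 to replicate 1 against mean log2 signal for all 4242 kept genes (grey) and the 58 kept ribosome biogenesis genes, coloured by class, with dashed lines at 1.2-fold. All but 4 of the members lie between the dashed lines, and no member lies among the 20 genes over 2-fold lower on replicate 2.

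Those 20 genes carry probe set numbers in 2 runs, from 6178 to 6594 and from 9334 to 9924. The ends of the runs were set by the probe sets of these same genes. Of the members, 10 have probe sets in these runs: NOP1, MAK21, DBP10, RRP1, RRP8, RRP5, HAS1, ERB1, UTP15 and UTP21. These 10 members lie on chromosomes 4, 12 and 13, and array coordinates were not read. Their log2 ratios ran from -0.19 (UTP15) to 0.22 (DBP10), with a median of -0.031. None of the 10 passed 1.2-fold. Of the 629 kept genes in these runs, 73 (11.6%) were lower on replicate 2 by over 1.2-fold, against 6.91% of all kept genes. The 20 genes that set the runs are among the 73 by construction, so no conclusion is drawn from the higher share. The median log2 ratio of the 629 genes was -0.051. Whether the 10 members differ from the other genes of the runs was not tested, and 10 genes are few for such a share.

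The wider pathway, a list of 72 further biogenesis factors of which 70 were measured, read lower against the array. Its median was 60.1 and 59.6 on replicates 1 and 2, and 47 of 70 (67.1%) lay above the all-gene median on both arrays. Of 66 kept genes, 4 were higher on replicate 2 by over 1.2-fold and 5 were lower, 6.06% and 7.58%, where 3.47% and 6.91% of all kept genes were. None of them passed 1.5-fold, where 0.306% of all kept genes were higher and 1.2% lower by that much. The ends of this range, named after their values were seen, were NSA1, a pre-60S factor, at 44.8 and 65.2 (log2 ratio 0.54), and TSR1, a factor of late pre-40S particles, at 95.6 and 64.6 (-0.56). The TSR1 probe set lies in the runs of numbers described above, and the part of probe set number in its value was not tested.

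Regulators of these genes were measured on the same arrays. SFP1, the activator, read 35.9 and 29.1, lower on replicate 2 by 1.23-fold. SCH9, the kinase gene, read 57.4 and 57.3. The repressor genes TOD6 and DOT6 read 74.9 and 76.2, and 145 and 152, and STB3, at 16.6 and 16.4, was below the filter. Of the 4 regulators kept by the filter, only SFP1 passed 1.2-fold. Among all kept genes, 3.47% were higher and 6.91% lower by that much, and the SFP1 difference was not tested.

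Ribosome biogenesis genes are known in yeast to lie next to each other more often than most genes. This excess was not tested here, as no pairs were counted for other genes. Among the 132 members and further factors, 9 neighbouring pairs of protein genes were found. In 7 of them a member lies beside a further factor, and in none do 2 members lie side by side. NOP56 and PWP1 lie in tandem on chromosome 12, and they read 207 and 216, and 144 and 149. UTP13 and RSA3, in tandem on the same chromosome, were both slightly lower on replicate 2 (log2 ratios -0.13 and -0.16). NOC4 and RRP15, which converge on chromosome 16, had -0.087 and -0.095. GAR1 and RPF1 on chromosome 8 differed, with -0.26 and -0.029, and NOG2 and ESF2 on chromosome 14 had opposite signs, -0.15 and 0.20. The remaining pairs, DBP8 with NMD3 and UTP9 with RIX1, both in tandem on chromosome 8, had ratios of 0.064 and -0.062, and of -0.088 and 0.0031. Ratios of other neighbouring genes were not compared, so whether such pairs shift together was not tested.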

How the data were processed

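Each sample is total RNA of a replicate culture on 1 Affymetrix array. Per the submitters' processing notes the authors used MAS5, which gave an intensity on a linear scale for each of 9335 probe sets; version, settings and scaling target: not given in the sources used here. All deposited intensity values were used unchanged. Names came from the platform annotation and RefSeq's R64 table: 6504 name 1 gene, 328 several (not used), 60 are controls and 2443 are unnamed here. A gene's value is the mean log2 signal of its probe sets, with signals of 0 left out (29 and 26 probe sets). Ratios are replicate 2 over replicate 1. The 2 arrays are 1 group, so nothing was tested between groups, and this number of arrays limits the precision. The design text speaks of replicate cultures.

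The members, classes and lists were chosen with earlier results of these data known. All members were to be named, with values for classes, complexes, extremes and genes past 1.2-fold. Counting steps were tested on simulated data. Alternatives were array scaling, probe set choice, a pseudocount of 1, signal filters, fold size and leaving out a replicate or the 2 runs of probe set numbers. Promoter motifs were planned and not analysed here. Python 3.11.15, numpy 2.4.6, pandas 2.3.3 and matplotlib 3.10.9 were used.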

Additional observations from a re-analysis of the deposited data

How the results depend on the processing

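The order of the class medians (snoRNP, then large subunit, then small subunit) was the same under every setting tried. Of 114 values recomputed under an alternative, 94 moved little. That is, a median signal moved by less than its SD over the arrays, and a count or a median log2 ratio by at most 1.5 times. Some of the 94 could not move further. With 2 arrays, leaving out 1 always shifts a median signal by less than the SD. Centring each array cannot change a ratio relative to the kept-gene median or a count above the array median. The SD ran from 0.314 for the large subunit to 5.69 for the small subunit, so this limit was unequal between classes. Without the 2 runs of probe set numbers, which leaves 50 genes, the median signal was 77.5 for all members, 84.2 for the large subunit, 55.5 for the small subunit and 308 for snoRNP genes. The median log2 ratio was then -0.0039 for the large subunit, a change of sign, and 0.083 for snoRNP genes; fewer genes enter these values. With the brightest probe set of each gene the median signal was 77.04 for all members and 376 for snoRNP genes, the latter also when only plain probe sets were used. Under quantile normalisation the median log2 ratio was 0.054 for snoRNP genes and -0.020 for all members. For all members it was -0.0021 with the filter at the 50th percentile, -0.0054 with the brightest probe set and -0.022 with plain probe sets. For the small subunit it was -0.034 with that filter and -0.042 with the brightest probe set, and under no alternative did it change sign. At 1.5-fold 1 gene was higher (UTP18) and 0 were lower. The count of genes lower by over 1.2-fold was 1 with the filter at the 50th percentile, which left out NOC3, and 4 with no filter, which added UTP20 and UTP22. Leaving out a replicate gave median signals from 74.9 to 75.5 for all members, 79.1 to 79.5 for the large subunit, 58.7 to 66.7 for the small subunit and 334.7 to 335.5 for snoRNP genes, and from 49 to 50 members above the all-gene median. Promoter motifs were not run. No paired analysis was possible because both arrays belong to 1 group. Differences near the 1.2-fold limit, and signals near the control level as in UTP20, are not resolved by 2 arrays.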
